A study of Caenorhabditis elegans with 2 samples.

Results

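The srh and sri genes of Caenorhabditis elegans encode chemoreceptors, and their promoters were examined for binding of XND-1 by ChIP-seq, the sequencing of DNA that is immunoprecipitated with a chromatin protein. All protein-coding genes of the WBcel235 annotation whose name begins with srh- or sri- were taken, which gave 281 of the 19973 protein-coding genes on the nuclear chromosomes, 220 of them srh and 61 sri. The rule rested on the gene name and used no measured value, but the families were picked with earlier results of these data known. The worms were whole hermaphrodites of strain QP0661, whose XND-1 carries a GFP-FLAG tag at its C terminus, grown to young adults for 50 h after starved L1 larvae were released. The tagged protein was pulled down with anti-GFP antibody in 2 biological replicates, and these made up the only group, with no second genotype, stage or treatment. A peak could therefore not be assigned to a tissue, and nothing in the lists tells germline from neuronal chromatin.

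Chemoreceptors of this kind are predicted G protein-coupled receptors that span the membrane 7 times and detect odours, tastes and pheromones. The srh and sri families belong to the Str superfamily, together with srd, srj and str, and many of their genes stand in tandem clusters on the arms of the autosomes, above all on chromosome V. They are known mostly from expression in a few sensory neurons, whereas XND-1 is a germline chromatin protein that is enriched on autosomes and acts in crossover formation on the X chromosome. Chromosome V held 201 of the 281 genes, 180 srh and 21 sri, and chromosome II held 58, 27 srh and 31 sri.

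Peaks came as lists, with 1 summit and 1 score each. The strictest list, here called the IDR list, held 1841 peaks that the authors kept by the irreproducible discovery rate, a measure of agreement between replicates. The list called on both replicates pooled had 24467 peaks, that of replicate 1 had 22772 and that of replicate 2 had 22364. The pooled list was deposited as peaks and background for input to IDR, so its entries outside the IDR list may be background. The score was the authors' own signal value, whose unit the sources used here do not name, and it had medians of 128 in the IDR list, 19.2 in the pooled list, 11.3 in replicate 1 and 12 in replicate 2. The IDR list was the top 1841 peaks of the pooled list with the same scores, whereas each replicate list had its own, lower scores, which are not set against the pooled ones. A gene was counted when a summit lay between 500 bp upstream and 200 bp downstream of any of its annotated 5′ ends. Read depth was unknown, since the lists carry no read counts, so the exact Clopper-Pearson 95% intervals cover only the counting of genes. They treat genes as independent, although many srh and sri genes stand in clusters, so they may be too narrow.

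The DNA under 4 summits shows the kinds of site at these genes. Each stretch is 101 bases of the plus strand of the RefSeq WBcel235 genome, 5′ to 3′, with the 21 bases centred on the summit in capitals. That of srh-16 (V:12291725-12291825) carried an IDR peak inside a promoter window. Those of srh-220 (IV:3978364-3978464) and srh-290 (V:17789997-17790097) had the highest pooled scores among genes without an IDR summit. That upstream of srh-8 (V:4004734-4004834) was the highest IDR peak within 1000 bp of any srh or sri 5′ end, but lay outside the window.
srh-16: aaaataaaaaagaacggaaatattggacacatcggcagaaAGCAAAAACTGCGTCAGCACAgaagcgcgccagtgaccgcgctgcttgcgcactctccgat
srh-220: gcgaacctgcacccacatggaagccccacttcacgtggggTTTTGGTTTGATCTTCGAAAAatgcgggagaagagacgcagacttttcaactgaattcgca
srh-290: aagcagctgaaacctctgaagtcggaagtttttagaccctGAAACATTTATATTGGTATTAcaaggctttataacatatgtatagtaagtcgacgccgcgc
srh-8: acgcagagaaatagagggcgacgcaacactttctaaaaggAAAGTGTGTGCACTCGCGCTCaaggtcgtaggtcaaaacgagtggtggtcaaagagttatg
The G and C content of these 101 bases was 49.5% at srh-16, 50.5% at srh-220, 39.6% at srh-290 and 48.5% at srh-8. At IDR summits in the windows of other genes it had a median of 42.6% (n = 1120), and at pooled summits outside the IDR list it had a median of 37.1% in srh and sri windows (n = 28) and 38.6% in other windows (n = 5085).

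Strong XND-1 peaks were found at the promoters of 2 of the 281 genes, srh-16 and sri-5. This was a share of 0.712% (exact 95% interval 0.0863% to 2.55%), with 1 of 220 srh genes and 1 of 61 sri genes. Over all protein-coding genes the IDR list reached 6.68%, and over the other genes, weighted to the chromosomes of the srh and sri genes, it reached 5.63%. The upper bound of the interval lay below both values. On chromosome V, 1 of 201 genes had an IDR summit, or 0.498% (0.0126% to 2.74%), against 4.46% of the other genes there. On chromosome II none of 58 genes had one, which allows a share of up to 6.16%, against 8.70% of the other genes there. On chromosome I, 1 of 11 genes had one, against 10.5% of the others, and the counts of 8 genes on IV, 2 on X and 1 on III are too small to place, with none among them. Other genes matched also for position on the arms or in the centre of the chromosome, each chromosome being cut into 3 equal lengths, stood at 5.03%.

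The strong peaks at sri-5 and srh-16 lay upstream of both genes and were present in both replicates. The summit at sri-5 (I:11182795-11186206, plus strand) was at position 11182559, 236 bp upstream of its 5′ end, and scored 169 in the IDR list, which is rank 706 of 1841. The replicates scored it 76.5 and 84.7, at ranks 799 and 715 of their lists, and placed the summit within 1 bp of that position. The same summit was 496 bp upstream of rsr-1 (I:11177848-11182063, minus strand), which encodes a relative of SR splicing proteins and is transcribed the other way, and the gap between both genes measured 731 bp. The summit at srh-16 (V:12291861-12294196, plus strand) was at 12291775, 86 bp upstream of its 5′ end, and scored 158, at rank 758. In replicate 1 it scored 86.6 and lay 80 bp upstream, and in replicate 2 it scored 71.4 and lay 61 bp upstream, at ranks 711 and 846. Whether the peak at sri-5 belongs to sri-5 or to rsr-1 was not tested.

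**Figure D1:**
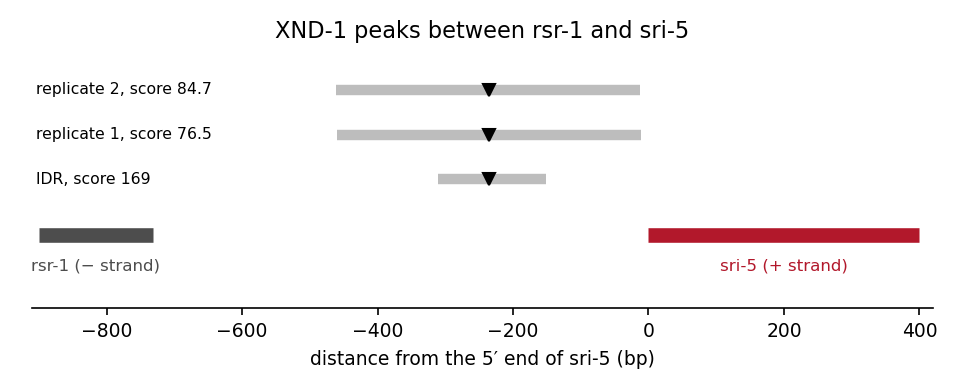
Position of the XND-1 peaks at sri-5 on a scale of distance from its 5′ end in bp. Grey bars are deposited peak intervals with the summit as a triangle and the score beside them, the red bar is sri-5 and the dark bar its neighbour rsr-1; all summits lie in the gap between both genes, 236 bp from sri-5 in the IDR list.

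A summit inside the windows of several genes was common in the IDR list. Of the 1122 IDR summits in any promoter window, 284 (25.3%) lay in windows of several genes, and the summits of srh-16 and sri-5 were both among them. Without such summits none of the 281 genes remained, against 3.35% of the other genes. In the pooled list 755 of 6235 were shared in this way, and 3 of the 30 in srh and sri windows were also in the window of another gene. Among these was the summit at srh-217, 417 bp upstream, which lay 18 bp from the 5′ end of Y113G7B.28.

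Outside the window stood 4 more IDR peaks within about 2 kb of an srh or sri 5′ end. The srh genes named for them were chosen after their values were seen. The summit 735 bp upstream of srh-8, at V:4004784, had a score of 529 and rank 187 of 1841, with 241 in replicate 1 and 287 in replicate 2. It was the highest of the 4, and it lay 475 bp from the 5′ end of an annotated pseudogene in a stretch of 9580 bp without protein-coding genes. The summit 824 bp from srh-89 scored 77.3 and lay 264 bp from the 5′ end of F25E5.1. The summit 1217 bp upstream of srh-24 scored 194 and lay 256 bp from algn-13, a gene of N-glycosylation, and 184 bp from R10D12.13. The whole of algn-13 lay between this summit and srh-24. The summit 1870 bp from the 5′ end of srh-63 lay downstream, past the far end of that gene. It scored 96.4 and had piRNA genes as its nearest annotated 5′ ends, at 343 and 521 bp. Each of these summits was closer to the 5′ end of another annotated gene than to that of the chemoreceptor gene. Any annotated gene counted here, pseudogenes and piRNA genes included, and to which gene the peaks belong was not tested.

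Distance to the nearest IDR summit gave the same order as the window counts. Within 1000 bp of an IDR summit stood 4 of the 281 genes (1.42%), within 2000 bp 6 (2.14%), within 5000 bp 12 (4.27%) and within 10000 bp 32 (11.4%, exact 95% interval 7.92% to 15.7%). The weighted shares of other genes at these distances were 7.69%, 10.4%, 17.4% and 27.5%. The median distance was 46.9 kb for the srh and sri genes and 24.7 kb for other genes, the latter without weighting.

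Entries of the looser lists lay at more of the genes, and whether these weak sites are binding or background was not tested. In the pooled list 28 of 281 genes had a summit in the window, a share of 9.96% (6.72% to 14.1%), against 27.7% of all protein-coding genes and 23.6% of other genes weighted to chromosomes. In replicate 1 the count was 23, or 8.19% (5.26% to 12%), against 27.3% of all genes and 23.1% of weighted other genes. In replicate 2 it was 28, or 9.96%, against 25.6% and 22.2%. The upper bound of the interval lay below the share of other genes in each of these 3 lists, which come from the same 2 replicates. In the pooled list chromosome V had 19 of 201 genes with a summit (9.45%) against 20.4% of its other genes, and chromosome II had 6 of 58 (10.3%) against 31.3%.

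**Figure D2:**
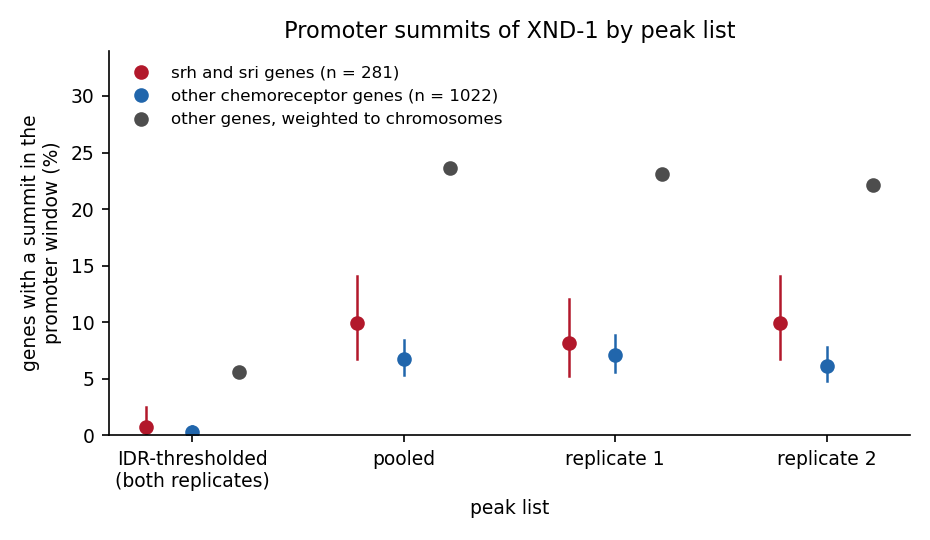
Percentage of genes with an XND-1 summit in the promoter window in each of the 4 peak lists. Red points are the 281 srh and sri genes and blue points the 1022 other chemoreceptor genes, each with its exact 95% interval for counting error, and grey points are other genes weighted to the chromosomes of the srh and sri genes; red points lie at 0.712% to 9.96% and grey points at 5.63% to 23.6%.

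Both families had summits, and the difference between them was not tested. In the pooled list 23 of 220 srh genes (10.5%, interval 6.74% to 15.3%) and 5 of 61 sri genes (8.20%, 2.72% to 18.1%) had a summit. Replicate 1 had 17 srh genes (7.73%) and 6 sri genes (9.84%), and replicate 2 had 25 srh genes (11.4%) and 3 sri genes (4.92%), so the order of both families turned between replicates. Intervals of both families overlapped in every list.

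Scores at these summits were low. Over the 28 genes the highest pooled score in the window had a median of 17.3, against 27.6 over other genes with a summit. In replicate 1 these medians were 9.87 and 15.4, and in replicate 2 they were 11.1 and 16.1. These medians of other genes were not weighted to chromosomes. On chromosome V alone the pooled medians were 17.6 and 24.2, and other genes weighted to the same arm or centre had 24.1. Apart from srh-16 and sri-5, the 26 other genes ran from 12.9 to 28.8 with a median of 16.9, below the lowest IDR score of 65.6, and 9 of them stood above the median of all pooled peaks, 19.2. Among other genes with a pooled but no IDR summit the median was 21.7, and 1311 of 4165 (31.5%) scored above 28.8. A gap in score from 28.8 to 158 thus separated the weak sites from the 2 strong ones.

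The highest of the weak sites was that of srh-220 (IV:3976429-3978015, minus strand), 399 bp upstream, with a pooled score of 28.8 and a replicate 2 score of 11.7, and no summit in the window in replicate 1. It faces srh-222, its neighbour in a cluster on chromosome IV, across 1809 bp. At srh-290 (V:17790491-17792470, plus strand) the summit was 444 bp upstream and scored 26.3, with 9.33 in replicate 1 and 15.6 in replicate 2. Both sites lay far below srh-16, which had 158 in the same list.

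Of the next 8 genes by pooled score, 4 had a summit in both replicates. They were srh-154 with a pooled score of 24.9 (9.36 in replicate 1 and 12 in replicate 2), srh-271 with 24.7 (12.5 and 11.1), srh-7 with 23.8 (10.7 and 11.8) and srh-24 with 21 (9.25 and 11.2). The summit of srh-154 lay 108 bp downstream of a 5′ end inside the gene, and that of srh-7 lay 298 bp upstream, in the 661 bp between it and srh-8. At srh-24 the replicates disagreed on the place, with a summit 49 bp downstream of the 5′ end in replicate 1 and 179 bp upstream in replicate 2. The other 4 had a summit in replicate 2 only. These were srh-71 with a pooled score of 22.8 and a replicate 2 score of 15.4, srh-170 with 22.5 and 15.8, srh-269 with 20.2 and 17.8, and srh-217 with 18.4 and 8.95. All 10 of these genes are srh genes, a family that made up 220 of the 281 genes and 23 of the 28 with a pooled summit. The highest sri gene among the weak sites was sri-34 with a pooled score of 17.6.

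Agreement between the replicates was low at the weak sites. A summit in the window in either replicate was found at 44 of the 281 genes, and in both at 7, or 15.9%, against 49.5% of other genes. The 7 were sri-5, srh-16, srh-290, srh-154, srh-271, srh-7 and srh-24. Among genes without an IDR summit the share was 5 of 42 (11.9%, interval 3.98% to 25.6%), against 38.0% of other genes. Because the scores of these 42 genes were low, other genes were also restricted to replicate scores up to 17.8, the highest among the 42. Of 4196 such genes, 997 had a summit in both, or 23.8% (22.5% to 25.1%), and the intervals overlapped. Of the 28 genes with a pooled summit, 7 (25%) had one in both replicates, 15 (53.6%) in one and 6 (21.4%) in neither, against 61.4%, 32.7% and 5.95% of 5497 other genes. A further 22 genes (7.83%) had a summit in a replicate list but not in the pooled list, against 9.50% of other genes, and 231 of the 281 (82.2%) had none in any list, against 62.6%.

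**Figure D3:**
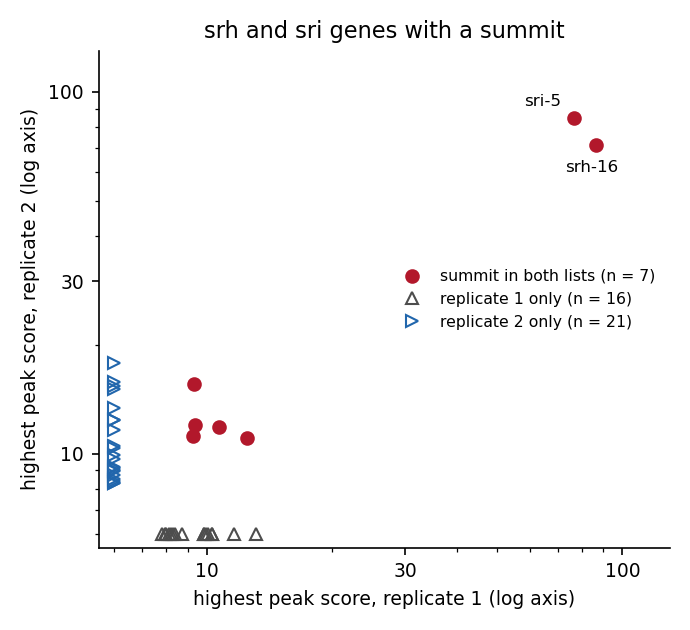
Highest peak score in the promoter window in replicate 1 against replicate 2, on log axes, for the 44 srh and sri genes with a summit in either replicate. Filled circles have a summit in both lists, and open triangles at the edge of the plot have one in a single list and are placed there only to show the other value; sri-5 and srh-16 stand apart at scores above 70 and the other 5 circles lie between 9 and 16.

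Taking more peaks of the pooled list brought in more of the genes. The 1841 highest peaks and the 3682 highest gave the same 2 genes. The 7364 highest gave 5 genes (1.78%), the 14728 highest 14 (4.98%) and all 24467 gave 28. Genes of no chemoreceptor family, weighted to chromosomes, rose from 6.18% to 9.72%, 13.5%, 19.5% and 25.5% over these steps. Their share was 8.69 and 13.7 times that of the srh and sri genes at the first 2 steps, where only 2 genes were counted. It was 7.61, 3.91 and 2.56 times at the later ones.

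**Figure D4:**
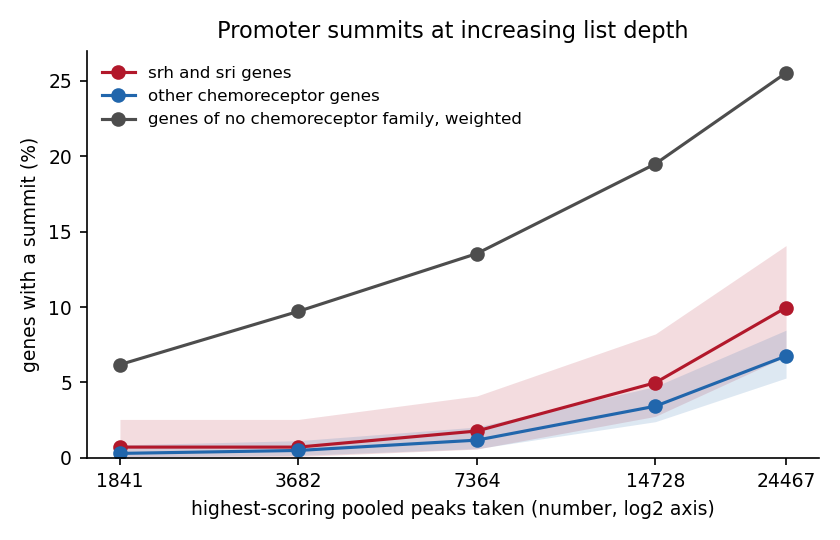
Percentage of genes with a promoter summit against the number of highest-scoring pooled peaks taken, on a log2 axis. Red is srh and sri genes and blue other chemoreceptor genes, with exact 95% intervals as bands, and grey is genes of no chemoreceptor family weighted to chromosomes; red goes from 0.712% to 9.96% and grey from 6.18% to 25.5%.

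Summits around the 5′ ends of the srh and sri genes formed no single maximum just upstream. In the 250 bp before the most upstream 5′ end there were 12 pooled summits, or 4.27 per 100 genes, and the next 250 bp further upstream held 12 as well. From 500 to 1000 bp upstream the bins held 13 and 12. Just downstream, in the first 250 bp, there were 3, or 1.07 per 100 genes. For other genes the same bins held 7.82 per 100 genes from 500 to 250 bp upstream, 10.6 in the last 250 bp and 7.76 in the first 250 bp downstream. Counts of 3 to 13 per bin leave the shape of the srh and sri profile uncertain.

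**Figure D5:**
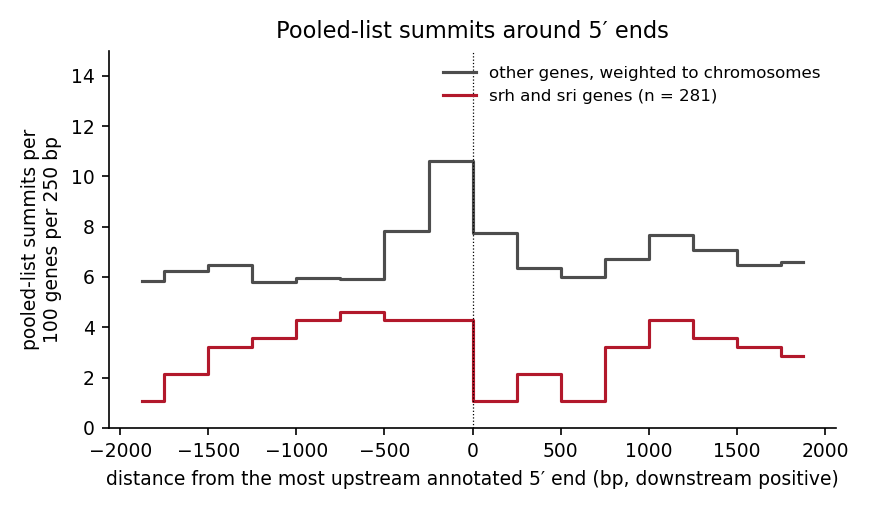
Pooled-list summits per 100 genes in bins of 250 bp, against distance from the most upstream annotated 5′ end in bp, with downstream positive. The grey line of other genes, weighted to chromosomes, reaches 10.6 in the last bin before the 5′ end, and the red line of the 281 srh and sri genes stands at 4.27 there and falls to 1.07 in the first bin after it.

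Within the gene body, outside the gene's own promoter window, no srh or sri gene had an IDR summit, whereas 314 of 19692 other genes did (1.59%). A summit in the promoter window of another, overlapping gene was still counted. Other genes had 4.94 such summits per Mb, weighted to chromosomes, and the srh and sri genes spanned only 0.513 Mb. Their lack of an IDR summit is thus weak evidence of a difference. The pooled list had 44 summits in the bodies of 37 genes, or 85.8 per Mb, against 217 per Mb in other genes. Replicate 1 gave 85.8 and 197 per Mb, and replicate 2 gave 115 and 191. All these rates are per Mb of whole gene length, the window part included. The srh and sri genes were shorter (median 1624 bp against 2040 bp), so the rates are not fully alike. The highest were at srh-48 with a pooled score of 50.1, srh-213 with 39.4 and srh-25 with 30.6, named after their values were seen. The body of srh-48 thus scored above the promoter windows of all the genes but srh-16 and sri-5.

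Other chemoreceptor families stood close to srh and sri. Of 1022 chemoreceptor genes outside both families, 3 had an IDR summit, or 0.294% (0.0606% to 0.855%), and 69 a pooled one, or 6.75% (5.29% to 8.47%). The other genes of the Str superfamily had 1 of 300 in the IDR list and 24 (8%) in the pooled list. The Sra superfamily had none of 124 in the IDR list, which allows up to 2.93%, and 6 (4.84%) in the pooled list. The Srg superfamily had none of 309, which allows up to 1.19%, and 21 (6.80%). The remaining families had 2 of 289 and 18 (6.23%). The 3 genes with an IDR summit were srw-90 with a score of 117, srz-97 with 81.8 and str-206 with 77.1. In replicate 1 they scored 74.7, 38.6 and 19.8 and in replicate 2 36.2, 40.5 and 43.7. The pooled intervals of these families overlapped that of srh and sri, and no difference between them was tested.

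Genes picked by name for chemosensory signalling and the sensory cilium were counted for comparison. Whether they are expressed in the same cells as srh and sri genes was not examined. Of 32 genes of chemosensory signalling, which include G proteins, cyclases and channels, 1 had an IDR summit and 5 a pooled one (15.6%, interval 5.28% to 32.8%). The 1 was gpa-1, a G protein alpha subunit, with a score of 72.8, 33.7 in replicate 1 and 48.4 in replicate 2, at a summit within the gene, 441 bp upstream of an internal 5′ end. Of 36 genes of the sensory cilium none had an IDR summit, which allows up to 9.74%, and 9 (25%, interval 12.1% to 42.2%) had a pooled one. The lists are small. The pooled interval of the signalling genes holds both the 9.96% of srh and sri genes and the 23.6% of other genes, and that of the cilium genes holds the latter and not the former. The 23.6% is weighted to the chromosomes of the srh and sri genes, so it is not a matched background for these lists.

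Length, place and sequence, which the choice of genes did not use, were set beside those of other genes. The median length of srh and sri genes was 1624 bp against 2040 bp, and 245 of 281 (87.2%) lay on the chromosome arms, taken as the outer 2 of 3 equal lengths, against 61.9% of other genes. Of the 281, 165 stood in 60 runs of neighbouring srh or sri genes, with up to 9 in a run, and 116 stood alone. The promoter windows had a median G and C content of 34.1% against 35.1%, and the gap to the next gene upstream had a median of 954 bp against 937 bp. Head-to-head pairs made up 38.8% against 46.3%.

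Many of these genes have copies of similar sequence, and how reads that match several places were treated is not given in the sources used here. Words of 32 bases were counted over the whole genome, and 234 of the 281 windows (83.3%) had at least 90% of words that occur once, against 88.5% of other genes. All words were unique in 53.7% of the windows against 71.3%. Among genes with at least 90% unique words, 2 of 234 (0.855%) had an IDR summit against 6.87% of other genes, and 26 (11.1%) a pooled one against 29.0%, both without weighting. Of the 47 genes below that limit 2 (4.26%) had a pooled summit and none an IDR summit, against 449 (19.8%) and 134 (5.92%) of 2265 other genes below it. No word was unique at sri-13, sri-14, both genes named srh-57 and both named srh-228, and none of these 6 had a pooled summit. None of the 223 other genes without a unique word had one either, so a peak may not be detectable at such windows.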

How the data were processed

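ChIP-seq of tagged XND-1 was done in 2 biological replicates. Per the deposited descriptions of the files, peaks were called for each replicate and on both pooled, against a control alignment, as loose lists for IDR, and an IDR-thresholded list was made from them. The aligner, caller and cut-off are not given in the sources used here. The deposited value per peak is a score by the authors' caller, used only to rank and describe peaks within a list. Summits are the deposited start plus offset.

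Here the ce11 lists were joined to the WBcel235 genes of annotation release 115. The ce10 lists and the control alignment were not used. Other genes were weighted by direct standardisation to the chromosomes of the members. No test across genes was made. Members and lists were chosen with earlier results of these data known. Genes named are those with an IDR summit and the genes sharing it, of which 1 is not reported here, the 10 next by pooled score, up to 3 IDR-bound genes per comparison list and up to 3 names with the fewest unique words, where 4 names tied at 0%; others are said to be chosen after their values were seen. Alternatives were other windows, overlap, nearest 5′ end, each replicate, other list lengths, unique windows and other backgrounds. Counting was checked on planted data. Scripts ran in Python 3.11.15, using pandas 2.3.3, numpy 2.4.6, scipy 1.17.1 and matplotlib 3.10.9.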

Additional observations from a re-analysis of the deposited data

How the results depend on the processing

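The IDR share of srh and sri genes, 0.712%, came from the same 2 genes with the top 1841 peaks of either replicate alone (0.712% to 0.712%), the stronger part of the IDR list, 3682 pooled peaks, any overlap and the nearest or most upstream 5′ end. The same 2 genes made up 0.855% of the genes with unique windows. The share was 0.356% with srh-16 alone in a window from 200 bp upstream to 100 bp downstream, 1.42% with srh-8 and srh-89 added in one from 1000 to 500 bp, and 0% without summits in the windows of several genes, a setting chosen after seeing the data. The IDR share of other genes was 2.89% in the narrow and 7.22% in the wide window, 6.47% with any overlap, 4.51% for the nearest and 5.30% for the most upstream 5′ end, 2.99% in the stronger part of the list, 8.83% in 3682 pooled peaks, 5.03% for other genes of the same arm or centre, 6.18% without chemoreceptor genes, 6.60% for genes with a three- or four-letter name, 3.35% without shared summits, and 5.33% to 5.53% from single replicates. The pooled share of srh and sri genes was 3.2% and 18.9% in the narrow and wide windows, 14.6% with any overlap, 8.19% to 9.96% in single replicates and 2.49% when a summit within 100 bp was required in both replicates, also chosen after seeing the data. For other genes these were 13.3%, 35.2%, 31.3%, 22.2% to 23.1% and 11.9%, with 21.4% for the nearest and 21.2% for the most upstream 5′ end, 21.8% for the same arm or centre, 25.5% without chemoreceptor genes, 26.3% for named genes and 18.8% without shared summits. The median pooled score of srh and sri genes was 20.2 in the narrow window and 9.87 to 11.1 in single replicates, whose scale is lower. That of other genes was 26.4 in the narrow and 25.8 in the wide window, 26.1 with any overlap and for the nearest 5′ end, 28.2 for the most upstream, 24.1 for the same arm or centre, 29.0 for named genes and 15.4 to 16.1 in single replicates. The share of srh and sri genes was below that of other genes in every setting run on both, as was the median. The cause of these shifts was not tested. No paired analysis was possible because the series holds 1 group. Peak lists carry no read counts, so how weak a peak could be detected is unknown, and 2 genes with an IDR summit set wide intervals.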
